A study of Mus musculus with 12 samples.

Results

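To examine the response of female germline stem cells (FGSCs) to *Stella* overexpression, 3 RNA-seq libraries of the overexpressing line (Over) were compared with 3 libraries of its empty vector control (Over-con). These 6 libraries, of 12 in the series, were chosen by their titles, and every transcript with enough counts was tested, so that changes smaller than 2-fold were kept. The study also sequenced a *Stella*-knockout clone and its control, which are used here only where an effect of overexpression was set against that of the knockout. All libraries came from cultured FGSCs of the mouse strain C57BL/6, grown on mitotically inactivated STO feeders, which are mouse embryonic fibroblasts, with leukemia inhibitory factor, EGF, bFGF and GDNF.

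The Over line was made by infecting FGSCs with a lentivirus that carried the *Stella* coding sequence and selecting stable cells with puromycin. The Over-con line received the empty lentiviral vector in the same way, so both groups carry a vector and its selection marker, and neither was edited. The promoter of the vector and the number of integrations are not given in the sources used here, nor is it said whether feeder cells were removed before RNA was taken or whether the 3 libraries of a group were separate cultures. Their p-values therefore measure the spread between these libraries, which may be technical. *Stella* (listed as *Dppa3*, and spelled DPAA3 in some labels) encodes a small maternal protein of primordial germ cells, oocytes and early embryos. It is known for protecting the maternal genome from loss of DNA methylation after fertilization, through the oxidizing TET enzymes, and for keeping the methylation adaptor UHRF1 away from chromatin in oocytes.

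Between 5611846 and 12866545 reads per library were counted on 41388 RefSeq transcripts, and 9401 transcripts had enough counts to be tested. Levels are given in CPM, counts scaled to the effective total of each library. The 3 Over-con libraries were less alike than the 3 Over libraries. Over-con replicate 3 lay nearer to Over replicate 2 (distance 18.9 on log2 CPM of the 500 most variable transcripts) and Over replicate 1 (19.8) than to Over-con replicates 1 (23.5) and 2 (26.7). Results are therefore given with and without it where it changes them. Counts were also scarce where RefSeq lists several transcripts of a gene. Of such genes 22.4% could be tested, against 42.5% of those with 1 transcript, so a count near 0 on such a gene says little about it.

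The label of germline stem cells was checked against its markers. *Ddx4*, *Dazl* and *Pou5f1* had 0 or 1 count over the 6 libraries, but each has 2 listed transcripts and *Gapdh*, also with 2, had 13 counts. Of the 11 listed germ cell markers with 1 transcript, 3 had 0 counts in every library. These were *Mael*, *Sohlh2* and *Ddx25*, which act in germ cell RNA control and differentiation. Others of the 11 were near 0, with *Nanos2*, *Sohlh1* and *Tdrd9* at 11, 4 and 9 counts over the 6 libraries together. *Dnd1* had 5 to 21 counts per library, *Tcam1* 538 to 1328 and *Ifitm2* 1050 to 2618. *Prdm1* (Blimp1), a specifier of primordial germ cells, had 3 to 10 counts per library, while *Ifitm3* (Fragilis) had 852 to 1711. Blood cell genes were abundant. *Laptm5*, a lysosomal protein of leukocytes with 1 transcript, had 5511 to 11420 counts per library, and the mast cell protease *Cpa3* had 4890 to 8473. The groups are called by their labels here. In such bulk RNA, fewer cells of a type and less RNA per cell cannot be told apart.

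*Stella* itself was counted 347, 371 and 285 times in the 3 Over libraries, or 32.7, 28.8 and 31.4 CPM of the library totals. It had 0 counts in each of the 3 Over-con libraries and in the 6 libraries of the knockout experiment. Every Over library thus lay far above every control library, and the level in Over was at least 82.1-fold higher than 3 counts spread over an Over-con library, which corresponds to 0.377 CPM (adjusted p = 1.40e-09, edgeR's quasi-likelihood test). The floor covers counting error only. The gene lies on chromosome 6 from 122576428 to 122580290 of mm9, on the plus strand, and the counts do not separate the vector's copy from the genomic one.

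Apart from *Stella*, most of the called changes were small. 155 transcripts, 1.65% of those tested, passed an adjusted p of 0.05 from edgeR's quasi-likelihood test with Benjamini-Hochberg adjustment, the test behind every adjusted p below. Of these, 72 were higher in Over (0.766%) and 83 lower (0.883%). Only 16 (0.17%) also changed by more than 2-fold, 9 upward and 7 downward. The other 139 changed by less, with a median absolute log2 fold change of 0.46, or 1.37-fold, and 76 of them lay between 0.25 and 0.5. The median log2 fold change over all tested transcripts was -0.00. At an unadjusted p under 0.05 in the same test, 588 of the 9401 transcripts were higher and 634 lower. Unadjusted counts of gene lists below are to be read beside this share. In all 155 the 3 Over libraries lay wholly above or below the 3 Over-con libraries, as they did in 1797 of the tested transcripts (19.1%, 9.36% higher and 9.75% lower).

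The changes were found mainly among well-measured transcripts. Between 1 and 10 CPM, 0.502% of tested transcripts passed, against 2.27% between 10 and 100 CPM and 2.49% above. The transcripts that fell were the more abundant, with a median level of 116 CPM against 37.9 CPM for those that rose. Transcripts above 100 CPM included 43 that fell and 13 that rose.

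**Figure D1:**
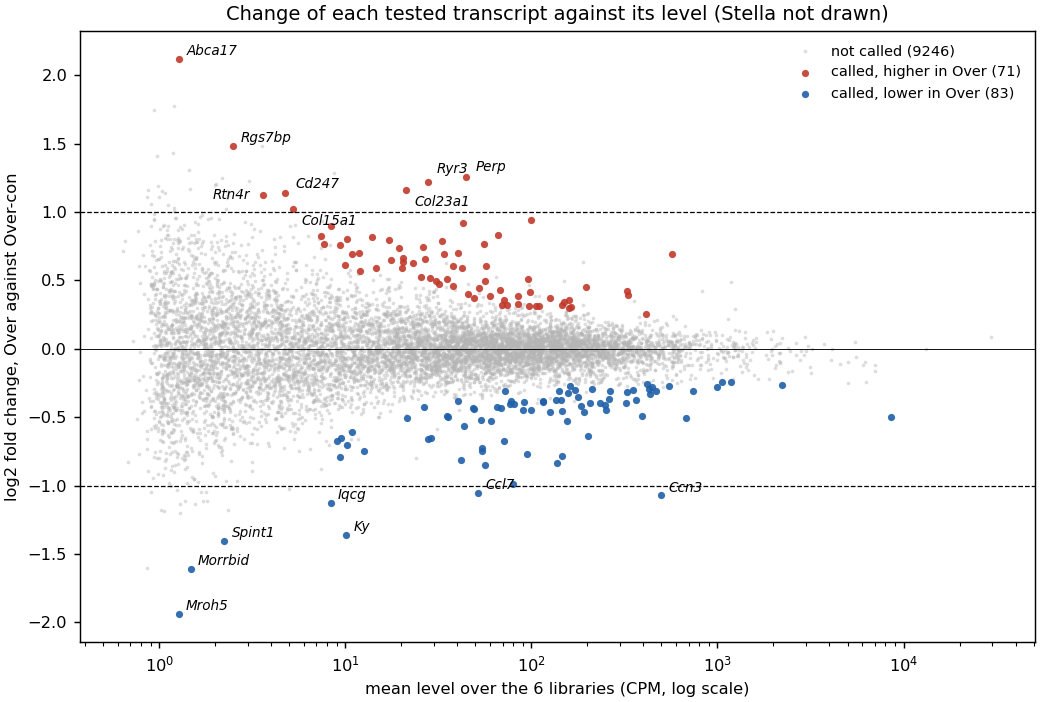
Each point is 1 tested transcript, with its mean level over the 6 libraries (CPM, log axis) across and its log2 fold change of Over against Over-con upward; red and blue mark transcripts with an adjusted p under 0.05, dashed lines mark 2-fold and *Stella* is not drawn. The 71 red and 83 blue points lie mostly between the dashed lines, and the blue ones reach higher levels.

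The number of calls rested on the libraries used. Leaving out 1 library at a time gave 48 to 90 calls for 5 of the 6 libraries. Without Over-con replicate 3 it gave 719 calls of 9596 tested (390 higher, 329 lower). All 155 transcripts were among these 719, and 73 then passed the 2-fold limit. Of the 155, 42 (21 higher, 21 lower) were called whichever library was left out. The remaining 113 were lost in at least 1 of these fits, 102, 98 and 108 of the 155 without Over replicates 1, 2 and 3, and 100 and 71 without Over-con replicates 1 and 2. All kept their direction throughout.

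**Figure D2:**
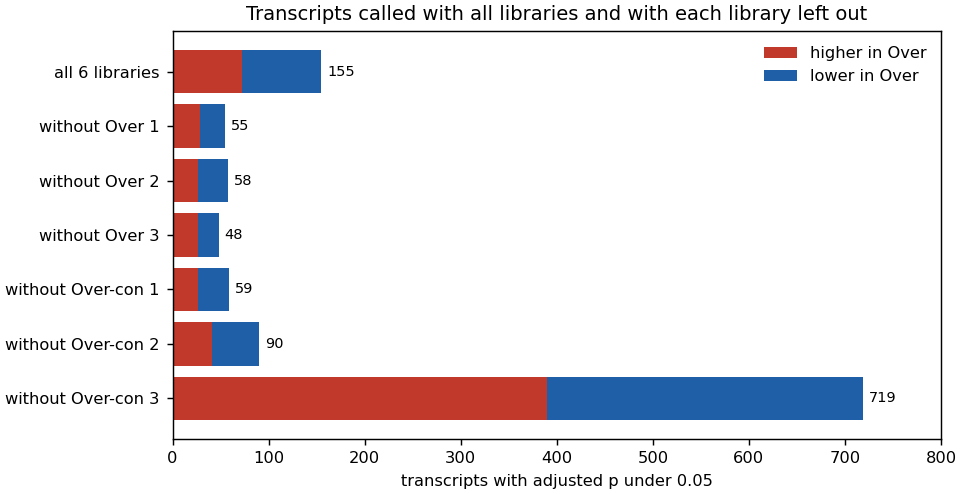
Bars give the number of transcripts with an adjusted p under 0.05, split into those higher (red) and lower (blue) in Over, with all 6 libraries and with each library left out. The count falls to between 48 and 90 when any library but Over-con replicate 3 is left out and rises to 719 without that library.

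Of the 8 other transcripts that rose by more than 2-fold, the 3 most abundant encode a membrane protein, a calcium channel and a collagen. *Perp*, a p53 target that encodes a desmosome-associated membrane protein, was at 64.2, 64.2 and 60.8 CPM in the Over libraries and 24.5, 25.2 and 29 CPM in the Over-con libraries. The lowest Over library lay far above the highest control library, and the log2 fold change was 1.26 (SE 0.09, adjusted p = 2.03e-06). The gene lies on chromosome 10 from 18564877 to 18576879 of mm9. *Ryr3*, a calcium release channel of the endoplasmic reticulum on chromosome 2 from 112471512 to 113057253, was at 42.6, 34.8 and 39 CPM in Over and 15.3, 16.1 and 18.2 CPM in Over-con, and the log2 fold change was 1.22 (SE 0.11, adjusted p = 1.55e-05). *Col23a1*, a transmembrane collagen on chromosome 11 from 51103422 to 51397420, was at 30.2, 29.1 and 28.8 CPM against 12.3, 11.6 and 15 CPM, a log2 fold change of 1.16 (SE 0.12, adjusted p = 3.98e-05). The groups of these 3 genes stood well apart, and all 3 were called whichever library was left out, with adjusted p-values of at most 0.000911.

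The other 5 transcripts that rose by more than 2-fold were low. *Abca17*, a lipid transporter gene of the ABC family, was at 2.07, 1.95 and 2.28 CPM in Over and 0.725, 0.357 and 0.294 CPM in Over-con (log2 fold change 2.12, SE 0.42, adjusted p = 0.0166). *Rgs7bp*, which anchors regulators of G protein signaling to membranes, was at 3.65 ± 0.25 against 1.34 ± 0.357 CPM (SD, n = 3; log2 fold change 1.48). *Col15a1*, a collagen of basement membrane zones, was at 6.99 ± 0.477 against 3.43 ± 0.962 CPM (log2 fold change 1.02). *Rtn4r*, the Nogo receptor, and *Cd247*, the signaling zeta chain of the T cell receptor, rose to 4.97 ± 0.626 and 6.43 ± 0.874 CPM, with log2 fold changes of 1.13 and 1.14. The groups of all 5 stood apart, but each lost its call without at least 4 of the 6 libraries in turn, with adjusted p-values up to 0.22.

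*Ccn3* had the lowest adjusted p of the 7 transcripts that fell by more than 2-fold. This matricellular protein of the CCN family, which is secreted and modulates adhesion and growth factor signals, was at 340.0, 303 and 321 CPM in Over and 777, 577 and 672 CPM in Over-con, and the log2 fold change was -1.07 (SE 0.09, adjusted p = 4.74e-06). The Over libraries lay close together, while the control libraries spread more widely and stayed above them. The chemokine *Ccl7*, which attracts monocytes, was at 29.1, 32.1 and 39.1 against 63.2, 82.2 and 64.1 CPM, a log2 fold change of -1.06 (SE 0.12, adjusted p = 0.000124). *Ky*, a gene of muscle cytoskeleton named for kyphoscoliosis, and *Iqcg*, a calmodulin-binding gene of sperm flagella, were rarer and fell to 5.62 ± 0.955 and 5.21 ± 0.21 CPM, with log2 fold changes of -1.36 and -1.13. All 4 were called whichever library was left out. *Mroh5*, *Spint1* and the long noncoding RNA *Morrbid* also passed, from 2.05 ± 0.281, 3.21 ± 0.635 and 2.24 ± 0.388 CPM in Over-con to 0.494 ± 0.248, 1.27 ± 0.39 and 0.717 ± 0.155 CPM in Over, but each lost its call without 4 or 5 of the 6 libraries in turn, with adjusted p-values up to 0.225. *Spint1* encodes a membrane inhibitor of serine proteases, and *Morrbid* is known from short-lived myeloid cells.

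**Figure D3:**
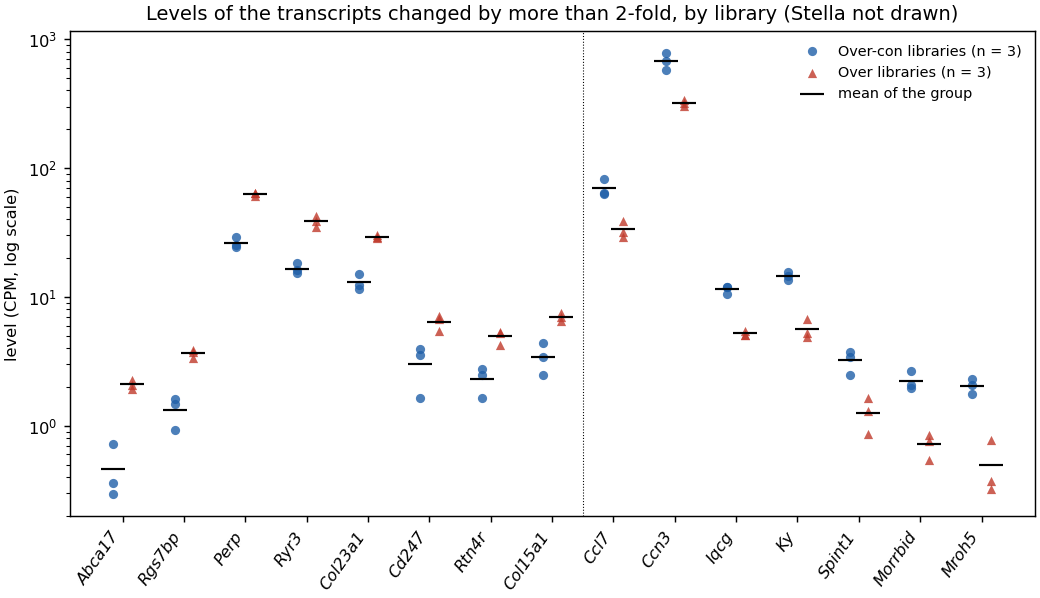
Each column is 1 transcript that changed by more than 2-fold, with its level (CPM, log axis) in each Over-con library (circles) and Over library (triangles) and the mean of each group (black bars). To the left of the dotted line the triangles lie above the circles, to the right below them, and the groups of no transcript overlap.

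Among the gene lists, chemokine ligands had the lowest median of those with at least 10 tested members. Among 12 tested chemokine ligands, the small secreted proteins that recruit leukocytes, 4 fell and none rose, and the list median was -0.36 on the log2 scale against -0.00 over all transcripts. *Ccl2*, the main monocyte chemoattractant, was at 99.4, 107 and 91.2 CPM in Over and 169.6, 182 and 179.7 CPM in Over-con, with little spread within either group (log2 fold change -0.84, SE 0.07, adjusted p = 8.05e-06). *Ccl2* and *Ccl7* are neighbours on chromosome 11 of mm9, 8259 bases apart. *Cxcl1*, which attracts neutrophils, was at 36.6, 42.3 and 42.4 against 68.1, 78.6 and 58.2 CPM (log2 fold change -0.74, SE 0.11, adjusted p = 0.00125), and *Ccl9* fell from 88.3 ± 8.66 to 54.9 ± 4.43 CPM (log2 fold change -0.68). The groups did not overlap for any of the 4, and each was called whichever library was left out. *Cxcl5* and *Ccl5* had log2 fold changes of -0.70 and -0.48 and did not pass (adjusted p = 0.091 and 0.159). Together the 12 transcripts summed to 293 to 321 CPM in Over and 474 to 542 CPM in Over-con, on a scale set over all 12 libraries. On that scale they summed to 295.5 to 382 CPM in the control of the knockout experiment and 238 to 370.0 CPM in the knockout, so that the Over-con libraries were higher than every other library.

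Genes of the NF-kappa B response, the transcription program switched on by inflammatory signals, moved the same way in 4 of 14 cases. *Nfkbia*, the inhibitor that the pathway induces on itself, was at 98.3, 114 and 90.1 CPM in Over and 122, 133 and 139 CPM in Over-con, with the highest Over library close to the lowest control library (log2 fold change -0.38, SE 0.09, adjusted p = 0.0365). *Ptgs2*, the inducible cyclooxygenase, was at 40.9, 43.5 and 40.1 against 59.5, 62 and 48.4 CPM (-0.44, SE 0.10, adjusted p = 0.0351), and *Vcam1*, an adhesion molecule of activated endothelium and stroma, at 179.7, 179 and 179 against 235, 267 and 208 CPM (-0.40, SE 0.08, adjusted p = 0.017). *Ccl2* is the fourth. No gene of the list rose by the test, and its median was -0.12. The calls of *Nfkbia*, *Ptgs2* and *Vcam1* were lost without 4 or 5 of the 6 libraries in turn, with adjusted p-values up to 0.224, 0.182 and 0.117.

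The promoters of *Cxcl1* and *Nfkbia* are shown because both hold the sequence that NF-kappa B factors bind. The 250 bases before each RefSeq start (GRCm38.p6, not the mm9 build of the counts) were searched on both strands for the kB motif GGGAANTTCC, and capitals mark the matches. For *Cxcl1* the window is chr5:90890995-90891244 on the plus strand, and 2 overlapping matches, 1 on each strand, start 71 and 70 bases before the start site. For *Nfkbia* it is chr12:55492648-55492897 on the minus strand, with 1 match, on the opposite strand of the gene, starting 29 bases before the start site.
Cxcl1: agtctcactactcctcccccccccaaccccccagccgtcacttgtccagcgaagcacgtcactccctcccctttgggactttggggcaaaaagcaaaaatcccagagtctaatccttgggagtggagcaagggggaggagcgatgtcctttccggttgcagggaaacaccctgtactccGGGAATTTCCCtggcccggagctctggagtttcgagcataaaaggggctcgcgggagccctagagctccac
Nfkbia: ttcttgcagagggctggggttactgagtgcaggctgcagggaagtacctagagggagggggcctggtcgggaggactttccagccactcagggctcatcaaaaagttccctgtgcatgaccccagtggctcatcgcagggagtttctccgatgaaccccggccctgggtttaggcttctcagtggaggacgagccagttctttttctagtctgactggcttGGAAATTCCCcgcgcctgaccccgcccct
A match describes the letters and not binding. Over all 27025 RefSeq promoters, counting 50 bases after the start as well, 0.355% held the motif, and over the 7062 of tested genes 0.467%. Only 55 of the 83 genes that fell were matched to a promoter, under 80%, so no count over the genes that fell is given. *Ifitm3* and *Gbp2*, which also fell, hold a match as well, starting 116 bases before and 7 bases after the start. No match was found for *Ccl2*, *Ptgs2* or *Vcam1*, which may lack a matched promoter. Another motif, AP1 (TGANTCA), was also searched and is not shown. The motifs were chosen after the called genes were seen.

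Of 27 tested genes of MAPK feedback and immediate early response, 2 fell, none rose, and 24 had a negative log2 fold change, against 4724 of 9401 transcripts overall. *Egr1*, a zinc finger factor induced within minutes of growth factor signals, was at 92.3, 125 and 98.2 CPM in Over and 129, 167 and 143 CPM in Over-con, and the highest Over library came close to the lowest control library (log2 fold change -0.47, SE 0.11, adjusted p = 0.04). *Atf3*, a stress-induced factor, was at 70, 69.2 and 64.7 against 99.4, 82.8 and 82.9 CPM (-0.38, SE 0.08, adjusted p = 0.0336). *Areg*, a ligand of the EGF receptor and the only call among 19 secreted cytokines and growth factors, was nearly constant in Over at 34.9, 35.3 and 35 CPM and varied in Over-con at 59.4, 57.4 and 39.6 CPM (-0.56, SE 0.13, adjusted p = 0.0351). Of 37 interferon-stimulated genes, only *Gbp2*, a GTPase of cell-autonomous immunity, passed, at 69.5 ± 2.59 against 92.6 ± 14.2 CPM (log2 fold change -0.41), while 34 had negative values with a median of -0.11. Without Over-con replicate 3, 6 of the 37 fell and none rose, where 329 of all 9596 transcripts fell and 390 rose. *Egr1*, *Atf3*, *Areg* and *Gbp2* each lost their call without 4 or 5 of the 6 libraries in turn, with adjusted p-values up to 0.242.

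Of 16 tested matricellular genes, 2 fell (*Ccn3* and *Tnc*) and 1 rose, and of 36 matrix proteases and inhibitors, 2 fell (*Timp2* and *Plaur*) and none rose. *Tnc*, tenascin C of provisional matrix, was at 334, 331 and 315 CPM in Over and 510.3, 432 and 436 CPM in Over-con (log2 fold change -0.49, SE 0.07, adjusted p = 0.00125). *Loxl2*, which crosslinks collagen and is in neither list, was at 37.7, 42.6 and 42.3 against 64.7, 70.6 and 68.3 CPM (-0.73, SE 0.08, adjusted p = 0.000151). Neither pair of groups overlapped, and both genes were called whichever library was left out. *Col6a1*, *Fbn1* (fibrillin-1), *Timp2*, an inhibitor of matrix proteases, and *Plaur*, the urokinase receptor, also fell, with log2 fold changes of -0.40, -0.38, -0.24 and -0.42, and lost the call without 2 to 5 of the libraries in turn. The basement membrane genes *Lamb1* and *Nid1*, named after their values were seen, had log2 fold changes of -0.28 and -0.27 and were lost without 5 of the libraries in turn. In the opposite direction, *Itih5*, whose family binds hyaluronan, rose from 15.9 ± 0.806 to 25 ± 1.1 CPM (log2 fold change 0.66, SE 0.11, adjusted p = 0.00418).

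All 11 tested S100 proteins and annexins, calcium-binding proteins of the membrane and cytoskeleton, had negative log2 fold changes, with a median of -0.19, and 3 fell by the test. *S100a10*, the partner of annexin A2, was at 107 ± 9.85 CPM (SD, n = 3) in Over and 184, 184 and 184 CPM in Over-con (log2 fold change -0.78, SE 0.07, adjusted p = 1.55e-05), and was called whichever library was left out. The control libraries were nearly identical for it. *S100a4* and *Anxa5* fell as well, with log2 fold changes of -0.39 and -0.31, and were lost without 5 of the libraries in turn.

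Markers of fibroblasts, the cell type of the feeders, moved in the same direction as these matrix genes. Of 16 tested fibroblast markers, 3 fell (*Col6a1*, *Fbn1* and *S100a4*), none rose and the median was -0.24. These 3 genes were already given above with the matrix and S100 genes, so their calls are not separate evidence. The abundant collagen genes *Col1a1*, *Col1a2* and *Col3a1* had log2 fold changes of -0.25, -0.24 and -0.25 and did not pass (adjusted p = 0.099, 0.0644 and 0.138). Summed over the 16, the level was 1920.4, 1991 and 1899.7 CPM in Over and 2238, 2403 and 2401 CPM in Over-con. These sums did not overlap, nor did those of unrelated lists given below with the leukocyte markers. In the control of the knockout experiment it was 1549.7 to 1768 CPM, below both, and in the knockout 1434 to 1989 CPM. *Lum* had at most 2 counts in a library. The part of these cells in the lower levels of matrix, S100 and chemokine genes was not tested.

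Adhesion genes changed in both directions. Of 29 tested integrins and adhesion molecules, 3 rose and 3 fell. *Itga4*, the alpha-4 integrin chain of blood cells, was at 221, 227 and 237 CPM in Over and 159.6, 178 and 163 CPM in Over-con (log2 fold change 0.45, SE 0.07, adjusted p = 0.00142), whereas *Vcam1*, which encodes a ligand of that integrin, fell. *Itgb3*, the beta-3 chain of the vitronectin receptor, was at 224, 220.2 and 196 against 278, 299.9 and 295 CPM (-0.44, SE 0.07, adjusted p = 0.00208). *Selplg*, the P-selectin ligand of leukocytes, rose by 0.52 on the log2 scale, and *L1cam*, a neural adhesion molecule named after its values were seen, had a log2 fold change of -0.39. A like pair was found among semaphorins and plexins. *Sema7a* was at 10.1, 9.51 and 8.81 against 16.9, 14.5 and 16 CPM (-0.74, SE 0.13, adjusted p = 0.00819), and its receptor *Plxnc1* at 11.3, 12.4 and 12.4 against 7.25, 8.04 and 8.33 CPM (0.61, SE 0.15, adjusted p = 0.0449). *Itga4* and *Itgb3* were called whichever library was left out, while *Sema7a* was lost without 3 and *Plxnc1*, *Selplg* and *L1cam* without 3 to 5 of the libraries in turn.

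Several genes of blood cell identity rose. Of 23 tested hematopoietic transcription factors, 3 rose and none fell, with a median of 0.20. *Spib*, a blood cell transcription factor left out of that list, fell, with a log2 fold change of -0.61. It was named after its values were seen and was lost without 5 of the 6 libraries in turn. *Zfpm1*, the FOG1 cofactor of GATA1, was at 42.7, 41.7 and 41.9 CPM in Over and 25.8, 24.3 and 27.5 CPM in Over-con (log2 fold change 0.69, SE 0.09, adjusted p = 0.000592). *Tox*, an HMG-box factor of lymphocyte development, was at 23.9, 25.9 and 23 against 12.8, 14.8 and 16.1 CPM (0.74, SE 0.12, adjusted p = 0.00403). *Lyl1*, a helix-loop-helix factor of blood progenitors, was at 115, 121 and 102 CPM in Over and 70.3, 70.2 and 96.4 CPM in Over-con, where replicate 3 lay near the Over libraries (0.51, SE 0.11, adjusted p = 0.0279). *Zfpm1* and *Tox* were called whichever library was left out and *Lyl1* was lost without any single library but Over-con replicate 3.

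Among immune signaling genes, *Card9*, the adaptor that links C-type lectin receptors to NF-kappa B, was at 80, 84.7 and 89.9 CPM in Over and 45, 45.4 and 52.2 CPM in Over-con, and the log2 fold change was 0.83 (SE 0.08, adjusted p = 4.14e-05). No other gene of the 15 tested in its pathway passed. Cytokine receptor genes split, with *Il21r* at 21.6 ± 0.888 against 13.6 ± 2.79 CPM (0.65 on the log2 scale) and *Il2rb* at 6.86 ± 0.965 against 11.8 ± 1.3 CPM (-0.79). *Pim2*, a survival kinase induced by STAT5, rose by 0.49, and *Cd68*, a lysosomal protein of macrophages, by 0.51. *Cpa3* fell, with a log2 fold change of -0.30, and the complement component *C3*, the most abundant transcript called, fell from 10406, 10333 and 9297 CPM to 7336, 7399.7 and 6498 CPM (log2 fold change -0.50, SE 0.07, adjusted p = 0.000963). *Card9* and *C3* were called whichever library was left out. *Cd68* was lost without Over replicate 2 alone, and the other 4 without 3 to 5 of the libraries in turn.

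Leukocyte markers were not higher as a list. None of 16 tested pan-leukocyte markers passed in edgeR's quasi-likelihood test (2 did in DESeq2 and 1 in limma-voom, all lower, and 4 had an unadjusted p under 0.05, all lower), their median was -0.08, and their summed level was 4529.6 to 4630.4 CPM in Over and 4726 to 5435 CPM in Over-con. The 11 tested mast cell markers summed to 922 to 939.9 against 1048 to 1170.3 CPM, with *Cpa3* the only member called, although the median of their log2 fold changes was 0.08, and *Fcer1a* and *Tpsab1*, each with 1 transcript, were at 0 counts in all 6 libraries. Neither sum overlapped between groups. Sums of lists of other kinds did not overlap either, while those of further lists did overlap. Examples without overlap are p53 targets (2232 to 2280 CPM in Over, 2325 to 2420 in Over-con) and the microRNA pathway (2270 to 2362 and 2411 to 2619). A sum without overlap, here or in other lists, is therefore not particular to its genes. In the control of the knockout experiment the sums were 4524.9 to 4798 and 567 to 633 CPM, and in the knockout 4708 to 5631 and 1372 to 1446 CPM. Macrophage and erythroid markers, with 4 tested each, had sums that overlapped, and T, B and NK cell markers had none tested. The part of these cells in the changes above was not tested.

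**Figure D4:**
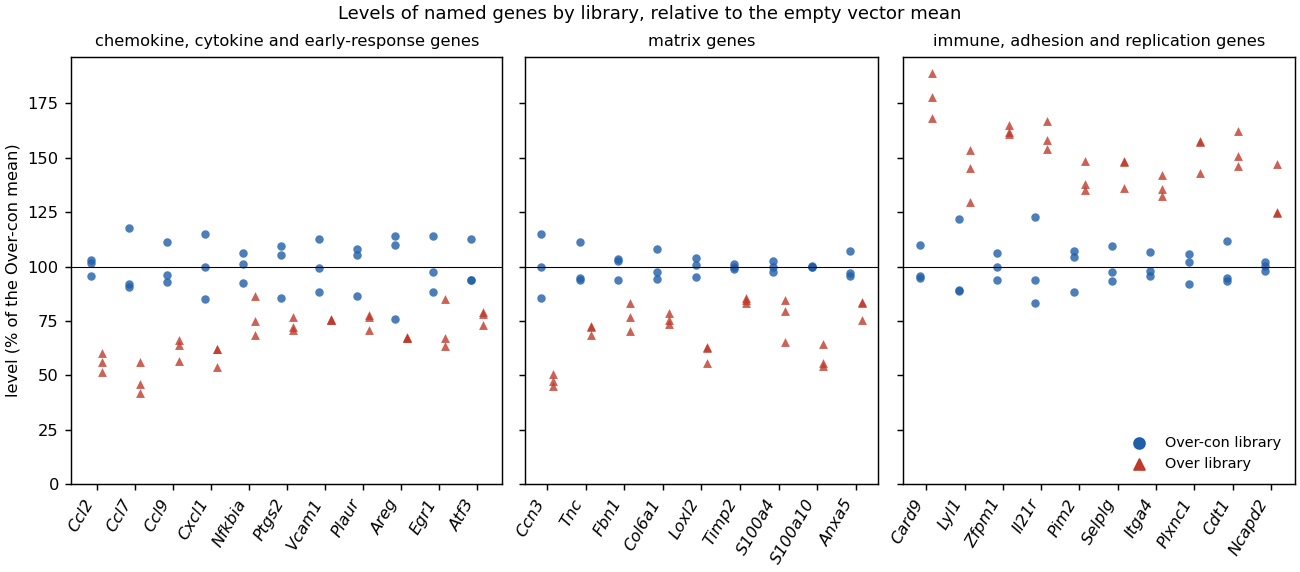
Each column is 1 called gene, with its level in each Over-con library (blue circles) and Over library (red triangles) as a percentage of the Over-con mean, which the black line marks at 100. The genes were picked from the called ones, fallen in the first and second panels and risen in the third. Triangles therefore lie below the circles in the first and second panels and above them in the third. Gaps are narrow for *Egr1*, *Nfkbia* and *Lyl1*. Called genes of these families that changed the other way are not drawn. Examples are *Itih5*, which rose, and *Itgb3*, *L1cam*, *Il2rb* and *Cpa3*, which fell.

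Several genes of metabolic enzymes were called. *Akr1c13* and *Akr1c12*, neighbouring aldo-keto reductase genes on chromosome 13 that lie 62576 bases apart, both rose. *Akr1c13* was at 698, 697 and 707 CPM in Over and 427, 446 and 426 CPM in Over-con (0.69, SE 0.06, adjusted p = 4.74e-06), and *Akr1c12* at 65.9, 73.8 and 70.1 against 42.5, 42 and 39 CPM (0.77, SE 0.08, adjusted p = 7.33e-05). They are close paralogs, so the share of reads between them is uncertain. *St8sia4*, which adds polysialic acid to adhesion molecules, was at 54.5, 51.9 and 62.2 against 30.8, 29.5 and 28.7 CPM (0.92, SE 0.09, adjusted p = 4.29e-05). *Pfkp*, a phosphofructokinase of glycolysis, rose on both of its listed transcripts, by 0.70 and 0.59 on the log2 scale, while no other of the 24 glycolysis and hypoxia genes passed. *Pcyox1l*, named for its likeness to prenylcysteine oxidase, fell instead, at 53.4, 55.9 and 50.2 against 102, 104 and 111 CPM (-0.99, SE 0.08, adjusted p = 2.49e-06). Each of these genes was called whichever library was left out.

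Signaling regulators followed. *Rgs12*, which shortens G protein signals, was at 130.3, 133 and 129 CPM in Over and 70.8, 68.8 and 64.3 CPM in Over-con, and the log2 fold change was 0.95 (SE 0.07, adjusted p = 2.03e-06), and its groups stood far apart. *Hhip*, which binds and restrains Hedgehog ligands, was at 19.4, 21.1 and 25.1 against 10.7, 13.8 and 13.5 CPM (0.80, SE 0.14, adjusted p = 0.0065). *Hey2*, a repressor induced by Notch, was at 22.7, 21 and 20.7 against 33.7, 33.6 and 34.4 CPM (-0.66, SE 0.10, adjusted p = 0.00142). No other gene of the 8 Hedgehog or 18 Notch pathway genes tested passed, and none of 30 Wnt and TGF-beta pathway genes did in edgeR, DESeq2 or limma-voom (9 had an unadjusted p under 0.05). *Rgs12* and *Hey2* were called whichever library was left out, and *Hhip* was lost without Over replicate 3 or Over-con replicate 1 (highest adjusted p = 0.0649).

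Among 14 tested receptors of chemokines and lipid mediators none passed in edgeR's test or limma-voom (1 did in DESeq2, lower, and 8 had an unadjusted p under 0.05, 1 higher and 7 lower). Over all 9401 transcripts, 588 were higher and 634 lower at that unadjusted p. *Ptgis*, *Ptges*, *Alox15* and *S1pr3* are called genes that belong to none of the lists. *Ptgis*, which makes prostacyclin, rose from 44.9 ± 7.12 to 69.3 ± 5.08 CPM (log2 fold change 0.61, SE 0.10, adjusted p = 0.00559), whereas *Ptgs2*, upstream of it, fell. *Ptges*, which makes prostaglandin E2, fell and *Alox15*, a lipoxygenase, rose, with log2 fold changes of -0.38 and 0.69, both named after their values were seen. *S1pr3*, a receptor of sphingosine-1-phosphate, was at 120.4, 134 and 125 CPM in Over and 174, 201 and 174 CPM in Over-con (-0.53, SE 0.07, adjusted p = 0.00117). *S1pr3* was called whichever library was left out, while *Ptgis*, *Ptges* and *Alox15* were lost without 2 to 5 of the libraries in turn.

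Some genes of DNA replication and chromosome condensation rose. *Cdt1*, which loads the replicative helicase at origins, was at 48.5, 43.6 and 45 CPM in Over and 28.3, 27.9 and 33.3 CPM in Over-con, and the log2 fold change was 0.61 (SE 0.10, adjusted p = 0.00375), and was called whichever library was left out. *Ncapd2*, a subunit of condensin I, was at 57.6, 48.8 and 48.9 against 39.9, 39.1 and 38.3 CPM (0.40, SE 0.09, adjusted p = 0.0357) and was lost without each library but Over-con replicate 3. Named after their values were seen, *Ncaph* of the same complex, the polymerase epsilon subunit *Pole*, the mismatch repair gene *Msh6* and the helicase subunit *Mcm3* rose, with log2 fold changes of 0.52, 0.50, 0.31 and 0.31. Each of these 4 was lost without 3 to 5 of the libraries in turn.

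In the cell cycle lists few members passed although most values were positive. None of 23 tested S-phase genes passed in edgeR, DESeq2 or limma-voom. Of these, 10 had an unadjusted p under 0.05, all higher, 21 had positive log2 fold changes, with a median of 0.19, and for 11 of them the Over libraries lay wholly above the Over-con libraries (9.36% of all transcripts did). Over all 9401 transcripts, 588 were higher at that unadjusted p. Of 31 tested G2/M genes, 30 were positive with a median of 0.24, 13 did not overlap in that direction and only *Ncapd2* passed. *Mki67* and *Kif11*, markers of cycling cells, had values of 0.32 and 0.38 (adjusted p = 0.0933 and 0.0795). Without Over-con replicate 3, 6 G2/M genes and 1 S-phase gene were called higher, where 390 of all 9596 transcripts were. The summed G2/M level was 1544, 1567 and 1544 CPM in Over and 1408, 1373 and 1360.4 CPM in Over-con, and that of the S-phase list 1229.7 to 1256 against 1096 to 1134 CPM. In the control of the knockout experiment they were 1179 to 1254 and 992 to 1018 CPM. In the knockout they were 1367 to 1454 and 1137 to 1149 CPM, also above its control without overlap. *Ccnd2*, cyclin D2, the only gene called of 19 in the G1/S list, fell from 1151 ± 16.2 to 973 ± 7.07 CPM (log2 fold change -0.24) and was lost without 5 of the libraries in turn.

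Sequences around the start sites of 3 of these genes are shown because each holds the E2F motif TTTNGCGC, named for factors of the G1/S transition, searched on both strands. Capitals mark the match. For *Ncapd2* the 250 bases before the start are given (chr6:125191587-125191836, minus strand, GRCm38.p6), where the match ends at the base before the start site. For *Cdt1* (chr8:122568035-122568064, plus strand) and *Mcm3* (chr1:20820263-20820292, minus strand) 30 bases around matches 32 and 38 bases after the start are given.
Ncapd2: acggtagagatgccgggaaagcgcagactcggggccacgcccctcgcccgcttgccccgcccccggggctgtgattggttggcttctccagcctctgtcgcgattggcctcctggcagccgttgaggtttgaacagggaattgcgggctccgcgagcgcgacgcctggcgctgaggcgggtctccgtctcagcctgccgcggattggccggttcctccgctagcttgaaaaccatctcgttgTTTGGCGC
Cdt1: gggaactaccttTTTGGCGCcatggcgcaa
Mcm3: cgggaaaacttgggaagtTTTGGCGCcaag
Of all RefSeq promoters 1.38% held this motif, and of those of tested genes 2.41%. Of the 71 genes that rose 57 were matched to a promoter, and no count over them is read here because the motif was chosen after the genes were seen.

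Few germ cell and meiosis genes had enough counts to be tested. *Stra8*, the meiotic gatekeeper induced by retinoic acid, has 1 listed transcript and had 1 count in all 6 libraries, in Over replicate 3, which is under the floor of 3 counts. *Sycp3*, of the synaptonemal complex, had 10, 24 and 17 counts in Over and 18, 11 and 18 in Over-con. None of 5 tested meiosis and oocyte genes and none of 6 self-renewal genes passed in edgeR, DESeq2 or limma-voom, with 0 and 3 (all lower) at an unadjusted p under 0.05. *Ifitm3*, also an interferon-induced gene, was the only one of 4 tested germ cell genes called, at 129, 133 and 117 CPM in Over and 152, 152 and 166 CPM in Over-con (-0.31, SE 0.07, adjusted p = 0.0396). Its close paralog *Ifitm2* was at 202 ± 7.88 against 208 ± 18.2 CPM (-0.05, adjusted p = 0.833), and the split of reads between them is uncertain. *Xlr3a*, of an X-linked family of lymphocyte and germ cell genes with near-identical copies, fell from 119.6 ± 10.5 to 70.4 ± 11 CPM (-0.77, SE 0.10, adjusted p = 0.000592). *Xlr3a* was called whichever library was left out and *Ifitm3* was lost without 5 of them in turn.

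Genes of DNA methylation, the process *Stella* is best known for, showed no called change. None of the 15 tested passed in edgeR's test (1 did in DESeq2 and none in limma-voom, and 3 had an unadjusted p under 0.05), and their median was 0.05. Over all 9401 transcripts, 588 were higher and 634 lower at that unadjusted p. *Tet1*, *Tet2* and *Tet3*, the oxidases of methylated cytosine, were near the detection limit at means of 1.44 to 6.07 CPM, with log2 fold changes of 0.13, 0.32 and 0.08 and SEs of 0.26, 0.46 and 0.18. *Dnmt1* and *Uhrf1*, with 5 and 4 listed transcripts, had 39 and 0 counts over the 6 libraries and were not tested. None of 15 imprinted genes passed in edgeR's test either (1 did in DESeq2 and none in limma-voom, and 4 had an unadjusted p under 0.05, all lower), with a median of -0.16 and *Igf2r* nearest to the threshold at -0.22 (adjusted p = 0.0831). *Ahcy*, which clears the product that inhibits methyltransferases, rose from 109.9 ± 14.9 to 143 ± 2.82 CPM (log2 fold change 0.37). It was named after its values were seen and was lost without 5 of the libraries in turn. Without Over-con replicate 3, 2 methylation genes were higher and 1 lower, and 1 imprinted gene was lower. Over all 9596 transcripts of that fit, 390 were higher and 329 lower.

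In the microRNA pathway 2 Argonaute genes fell among 14 tested. *Ago4* was at 153, 159.8 and 161 CPM in Over and 247, 244 and 246 CPM in Over-con, with little spread within either group (log2 fold change -0.64, SE 0.06, adjusted p = 1.83e-05), and was called whichever library was left out. *Ago2*, the slicing Argonaute, fell from 599.7 ± 32.6 to 496 ± 28.2 CPM (log2 fold change -0.27) and was lost without 5 of the libraries in turn. Of 18 chromatin architecture genes *Ncapd2* alone passed, and none of 42 Polycomb and histone modifiers did in edgeR, DESeq2 or limma-voom (3 had an unadjusted p under 0.05).

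The list of RT-qPCR genes has 8 members, all tested. *Card9*, *St8sia4*, *Tox*, *Itih5* and *Hhip* rose, *Sema7a* fell, and *Prdm9* and *Meikin*, both of meiosis, had log2 fold changes of -0.06 and -0.07 and did not pass (adjusted p = 0.843 and 0.773). These genes were picked by the study on these samples, so their count is not independent evidence.

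Over 55 gene lists, 37 had at least 1 called member and 8 had members called in both directions. Of the 979 tested genes on any list 59 were called, beside 155 of all 9401 transcripts (1.65%). The lists were written with earlier results of these data known, so these counts are not read as a result. Some lists had medians near 0. None of 52 ribosome and translation genes, 33 respiratory chain genes, 14 heat shock genes or 22 genes of the BCL2 family and caspases passed in edgeR's test (1, 0, 0 and 1 did in DESeq2, none did in limma-voom, and 1, 2, 1 and 4 had an unadjusted p under 0.05), with medians of 0.02, 0.04, 0.04 and -0.08. Without Over-con replicate 3, 8, 7, 2 and 2 genes of these lists were called higher and 0, 1, 0 and 2 lower. The medians of the ribosome and respiratory chain lists were then 0.10 and 0.11. Over all 9596 transcripts of that fit, 390 were higher and 329 lower. Among 25 cholesterol and fatty acid synthesis genes, 21 were positive and *Abcg1*, a sterol exporter, rose by 0.46. For oxidative stress genes, *Akr1c12* and *Akr1c13* rose while *Srxn1*, sulfiredoxin, fell, with a log2 fold change of -0.37. *Plk2*, a kinase induced by p53, fell with a value of -0.35 and was besides *Perp* the only call among 25 p53 targets. *Abcg1*, *Srxn1* and *Plk2* were lost without 3 to 5 of the libraries in turn.

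**Figure D5:**
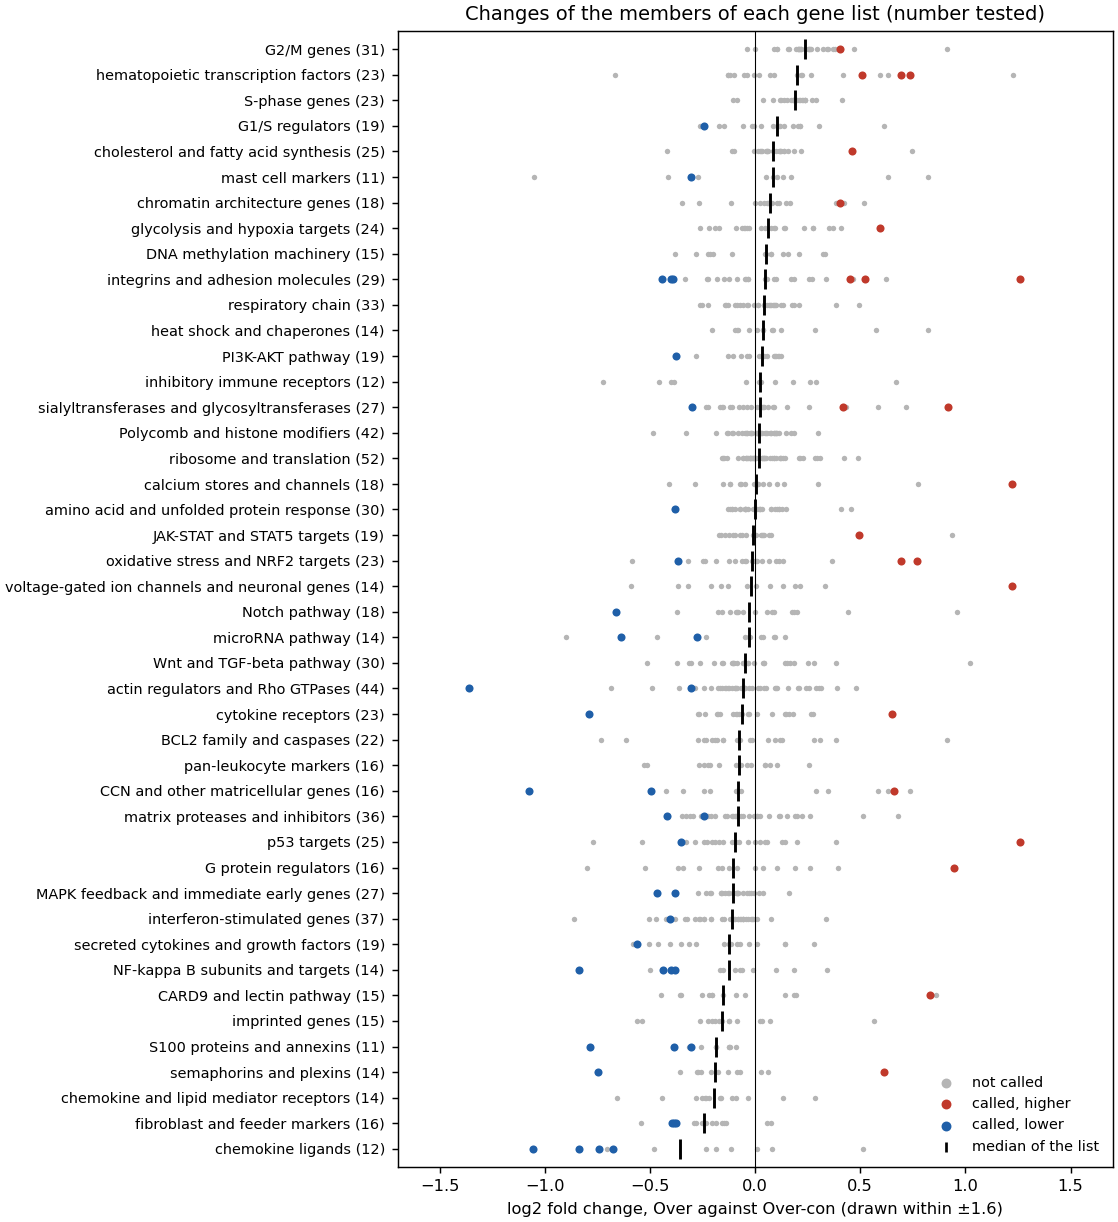
Each row is a gene list with at least 10 tested members, ordered by its median (black tick); points give the log2 fold change of each member, red and blue where the adjusted p is under 0.05. Chemokine ligands, at -0.36, lie lowest and G2/M genes, at 0.24, highest, and most members of every list are grey.

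Called transcripts were spread over the genome. The share called was 3.07% of tested transcripts on chromosome 2 and 0.623% on chromosome 15, with the other autosomes and the X chromosome between. No transcript of the Y chromosome was tested. Among the 6 pairs of neighbouring called genes with the shortest distances, 8259 to 185297 bases, *Ccl2* with *Ccl7* and *Akr1c13* with *Akr1c12* changed in the same direction, as did *Fam110c* with *Lamb1*. The other 3 pairs changed in opposite directions, such as *Ptgis* (log2 fold change 0.61) and *B4galt5* (-0.30), 57840 bases apart on chromosome 2. No gene of these pairs had more than 1 tested gene between it and its neighbour.

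Set against the knockout, in 1 fit of all 12 libraries, the effect of overexpression differed for 6 of the 15 genes other than *Stella* that changed by more than 2-fold (8.64% of all transcripts in that fit differed by this test). These 15 were chosen by their effect in the overexpression comparison. *Ccn3* fell in both experiments. It was at 316 ± 18.4 CPM in Over and 668 ± 100.3 in Over-con, and at 15.6 ± 1.22 CPM in the knockout and 235 ± 6.89 in its control (SD, n = 3 each, on the scale of the 12-library fit). Its log2 fold change was thus -1.07 with overexpression and -3.91 with knockout, a difference of 2.83 (SE 0.14, adjusted p = 7.34e-11). *Rgs7bp*, *Col15a1* and *Cd247* rose in both, by 1.48, 1.02 and 1.14 with overexpression and by 1.26, 0.76 and 0.90 with knockout, and the differences did not pass. These values do not show that the effects were equal. The 2 controls themselves differed. For 13 of the 15 genes the control of the knockout lay on the Over side of Over-con. For 8 of the 15 the gap between the controls was larger than that between Over and Over-con, and the cause was not tested. *Perp* was at 25.9 ± 2.42 CPM in Over-con and 72.5 ± 6.45 CPM in the control of the knockout, above the 62.0 ± 1.95 CPM of Over. No gene of the 15 was called in opposite directions in the 2 experiments, and 11 were not called in the knockout. The knockout line is 1 clone, so its effect and that of the clone cannot be told apart. *Stella* had 0 counts in the knockout and in its control alike, so its loss cannot be read from these counts.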

How the data were processed

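RNA of cultured mouse FGSCs was sequenced by the authors, and the deposited counts are whole numbers of reads per RefSeq transcript. The submitters' processing notes name HISAT2, DESeq2 and the mm9 build. Counting rules for strand, multi-mapped and overlapping reads are not given in the sources used here. Raw counts of the 3 Over and 3 Over-con libraries, mapped by column title, were used as deposited, with totals of 5611846 to 12866545, which put the floor of 3 counts at 0.233 to 0.535 CPM. Transcripts were filtered with filterByExpr, scaled by TMM and tested with edgeR 4.0.16 (glmQLFit and glmQLFTest, 2-sided, R 4.3.3) with Benjamini-Hochberg adjustment over all 9401. The biological coefficient of variation was 0.0735. Effects of overexpression and knockout were compared as an interaction in 1 fit of the 12 libraries. Gene lists use the most abundant tested transcript of each gene, and their S-phase and G2/M lists came from Seurat 5.3.0. Genes and lists were chosen with earlier results of these data known. No count adjusted over a list alone and no set test is given.

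Genes were named by rule: *Stella*; all transcripts past both thresholds (adjusted p under 0.05, absolute log2 fold change over 1); the 25 lowest adjusted p-values per direction among groups that did not overlap; up to 5 called members and the first 4 genes of each list; and genes the study names. Genes outside the rule are marked where named, and *Cxcl5*, *Ccl5*, *Lum*, *Igf2r*, *Mki67*, *Kif11*, *Tet1*, *Ifitm2*, *Mael*, *Sohlh2*, *Ddx25* and *Tpsab1*, given as values, were likewise chosen after their values were seen. The same holds for *Tcam1*, *Dnd1*, *Nanos2*, *Sohlh1* and *Tdrd9*.

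Alternatives were DESeq2 1.42.0, limma-voom (limma 3.58.1), other scalings and filters, a replicate block, and leaving out each library. Same-numbered libraries did not deviate together (correlations of -0.03, -0.12 and -0.33), so the numbers were not treated as pairs. The test was checked on simulated counts. Promoters were taken from RefSeq (GRCm38.p6). Figures were drawn with Python 3.11.15 and matplotlib 3.10.9.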

Additional observations from a re-analysis of the deposited data

Results flagged for a closer look

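For 6 of the 15 genes other than *Stella* that changed by more than 2-fold with overexpression, the effect differed from that of the knockout by a test of the difference itself (edgeR's quasi-likelihood test of the interaction over 12 libraries, Benjamini-Hochberg adjustment). The differences, overexpression minus knockout on the log2 scale, were 1.09 for *Perp* (SE 0.13, adjusted p = 2.55e-05), 1.19 for *Ryr3* (SE 0.17, adjusted p = 0.000117) and 0.96 for *Col23a1* (SE 0.16, adjusted p = 0.000421). These 3 genes rose with overexpression and had knockout values of 0.16, 0.03 and 0.19, none of them called. *Ccn3* differed by 2.83 (SE 0.14, adjusted p = 7.34e-11), with a larger decrease in the knockout, at -3.91. *Ccl7* differed by -1.62 (SE 0.26, adjusted p = 0.000414), with a knockout value of 0.55 that did not pass (adjusted p = 0.0509). *Iqcg* differed by -1.21 (SE 0.36, adjusted p = 0.0403), with a knockout value of 0.07. The 2 controls differed in these genes. On the 12-library scale Over-con and the control of the knockout were at 25.9 ± 2.42 and 72.5 ± 6.45 CPM for *Perp*, 16.4 ± 1.51 and 26.3 ± 3.17 for *Ryr3*, and 12.8 ± 1.79 and 23.4 ± 2.26 for *Col23a1* (SD, n = 3). For *Ccn3*, *Ccl7* and *Iqcg* they were at 668 ± 100.3 and 235 ± 6.89, 69.0 ± 10.4 and 39.3 ± 7.09, and 11.4 ± 0.844 and 1.29 ± 0.120 CPM. The part of the controls in the differences was not tested. Each experiment has its own control and the 15 genes were chosen by their overexpression effect. *Stella* had 0 counts in the knockout and in its control alike.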

How the results depend on the processing

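The count of 155 calls lay between 127 and 182 under DESeq2, limma-voom, DESeq2 size factors, library totals, a minimum of 10 counts in every library, a fit of all 12 libraries and counts summed per gene. Without the filter on low counts it was 302 (186 higher, 116 lower), over 19469 transcripts in place of 9401, and the count past 2-fold was 34 in place of 16. With the replicate block it was 67 (30 higher, 37 lower) and 8 past 2-fold. Leaving out 1 library gave 48 to 719 calls, 8 to 73 of them past 2-fold, and 2511 to 3665 transcripts whose groups did not overlap in place of 1797, since fewer libraries overlap less. The highest of these counts came without Over-con replicate 3, and the cause was not tested. Library totals in place of TMM gave 84 higher and 73 lower calls against 72 and 83, and moved the median of all transcripts from -0.00 to 0.02. All 155 called transcripts kept their direction under each alternative that gave them a value. *Stella* remained called with each library left out, at least 73.6-fold to 104-fold higher, and 5 or 6 of the 15 effects differed from the knockout with each library left out. With 3 libraries a group, exact permutation of single genes cannot go below p = 0.10. Between 1 and 10 CPM 0.502% of transcripts were called, and the cause was not tested.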
